A study of Caenorhabditis elegans with 2 samples.

Results

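Body wall muscle genes of Caenorhabditis elegans were examined in peak lists from chromatin immunoprecipitation followed by sequencing (ChIP-seq), which maps where a protein sits on the genome. The set held 35 genes for sarcomere and attachment proteins, chosen by name from the 19985 protein-coding genes of the annotation, and all 35 names were found there. A gene was given a peak when the summit lay within 1000 bp of the start of any of its transcripts. The protein mapped was PAX-1, a member of the Pax family of transcription factors, tagged with eGFP. The embryos were late-stage animals of strain OP117, which carries the transgene wgIs117 on the unc-119(ed3) III background, with both sexes pooled. All samples shared this genotype and stage, and the series held 1 group of 2 biological replicates with no untagged or untreated group. Whole embryos were used, so peaks from muscle nuclei and from other nuclei cannot be told apart, and no expression was measured that would let the muscle label be checked.

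The authors' lists on the ce11 build held 30000 peaks for replicate 1, 29397 for replicate 2, 30000 for the pooled replicates and 714 in the thresholded list. Ranked by signal, the top 714 of the pooled list and the thresholded list are the same peaks. The signal of a peak is the authors' value and only ranks peaks within a list, so rank 1 is the highest signal of that list. Most pooled peaks are weak, with a median −log10 q of 0.0382 against 1.85 in the thresholded list, so a summit in a full list is a candidate position. Depth is unknown because the lists give no read counts. No summit of any list lay near the gene of the tagged protein, since the nearest pooled summit was 22.3 kb from the start of pax-1 and the nearest in replicates 1 and 2 were 17.3 and 18.5 kb away.

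A sarcomere is the contractile unit of striated muscle, in which thick filaments of myosin slide past thin filaments of actin. In the worm's body wall, thin filaments are anchored at dense bodies and thick filaments at M-lines, and both structures are held to the cell membrane by integrin and to the basement membrane outside it. Worms that lack integrin or its partners arrest as paralysed embryos, the phenotype that gave the pat genes their name. The 35 genes comprised 10 for the thick filament and its giant associated proteins, 10 for the thin filament, 13 for attachment and 2 for transcription factors of muscle.

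The highest peaks of the set lay upstream of attachment genes. In the thresholded list 2 of 35 muscle genes had a summit, or 5.71%, against 3.54% of all protein-coding genes. No test was made of this difference, which rests on 2 genes. Both were attachment genes, unc-112 and pat-6. None of the 10 thick filament genes, the 10 thin filament genes and the 2 regulators had one.

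The gene unc-112 (WBGene00006836) lies on the minus strand of chromosome V from 14691855 to 14696654 and encodes kindlin, a cytoplasmic partner of integrin. Its peak spanned 14696789 to 14697132 on chromosome V, in intergenic sequence 307 bp upstream of the start. The signal was 64.4 in the thresholded list, at rank 555. The overlapping peak ranked 362 in replicate 1 with a signal of 49.2 and 6597 in replicate 2 with a signal of 16.0. Replicate 1 thus placed the site among its highest peaks and replicate 2 did not. A weaker pooled summit of unc-112, 418 bp downstream of the start in an intron, had a signal of 21.0 and rank 13991.

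The gene pat-6 (WBGene00003932) lies on the minus strand of chromosome IV from 261886 to 264232 and encodes parvin, an actin-binding protein that joins the integrin-linked kinase. Its peak spanned 264395 to 264738 on chromosome IV, in intergenic sequence 335 bp upstream of the start. The signal was 58.4, at rank 705, close to the lowest signal of the thresholded list, 58.3. The overlapping peak had rank 1769 in replicate 1, with a signal of 26.5, and rank 486 in replicate 2, with a signal of 29.5. Here replicate 2 gave the higher place. No other protein-coding start lay within 1000 bp of either summit, so neither peak was shared with another protein-coding gene at that distance. Starts of non-coding genes were not examined.

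The sequence around these summits is shown because both hold AGAGACG, a run that was searched for after these windows had been seen. It joins AGAGAC and CGTCTC, hexamers taken from earlier results of these data. Each line gives the summit with 75 bases on each side, on the strand of the gene and from 5′ to 3′, with the position on ce11. Capitals mark matches on either strand to the E-box core CANNTG, to AGAGAC or its neighbour CGTCTC, to a stretch of the paired domain consensus, GTCACG, and to another hexamer from those results, GCGCGC. The windows of unc-60 and deb-1, muscle genes outside the thresholded list, hold AGAGACG too, and that of unc-45, the highest thick filament peak, does not. The sequence is from the RefSeq assembly WBcel235, the same build as ce11.

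unc-112, chrV:14696886-14697036, minus strand: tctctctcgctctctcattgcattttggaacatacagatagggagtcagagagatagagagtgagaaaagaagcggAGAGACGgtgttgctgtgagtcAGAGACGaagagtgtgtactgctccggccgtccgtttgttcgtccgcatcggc

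pat-6, chrIV:264492-264642, minus strand: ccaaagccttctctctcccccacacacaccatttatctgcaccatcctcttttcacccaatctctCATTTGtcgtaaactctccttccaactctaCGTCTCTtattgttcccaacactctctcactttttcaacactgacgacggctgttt

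unc-60, chrV:1474641-1474791, plus strand: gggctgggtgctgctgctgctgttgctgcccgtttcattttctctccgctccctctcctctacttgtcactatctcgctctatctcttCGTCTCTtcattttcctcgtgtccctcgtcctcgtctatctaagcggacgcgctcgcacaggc

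deb-1, chrIV:7093910-7094060, minus strand: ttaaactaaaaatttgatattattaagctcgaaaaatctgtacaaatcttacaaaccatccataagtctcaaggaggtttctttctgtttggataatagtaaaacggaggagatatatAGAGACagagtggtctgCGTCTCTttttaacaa

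unc-45, chrIII:491204-491354, plus strand: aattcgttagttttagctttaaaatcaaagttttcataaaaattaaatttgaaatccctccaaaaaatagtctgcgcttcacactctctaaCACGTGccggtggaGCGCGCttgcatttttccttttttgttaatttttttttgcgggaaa

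AGAGACG, on either strand, was found in 4 of 45 windows at pooled summits of muscle genes, or 8.89%, in 2.46% of the windows at all 29981 nuclear pooled summits, and in 125 of the 696 windows at nuclear thresholded summits. The unc-112 window holds it in 2 places. AGAGAC and CGTCTC overlap in this stretch, since the reverse complement of CGTCTC is GAGACG, so their counts are not independent. AGAGAC stood in 7 of the 45 muscle windows (15.6%, against 6.34% of all pooled and 31.0% of all thresholded windows) and CGTCTC in 6 (13.3%, against 4.80% and 28.3%). GCGCGC stood in 1 muscle window, that of unc-45. The G+C content was 51.7% at unc-112, 45.7% at pat-6, 56.3% at unc-60, 31.8% at deb-1 and 33.8% at unc-45. It averaged 36.4% over the 45 muscle windows, against 32.5% at all pooled and 43.8% at all thresholded summits. The 45 muscle windows were all chosen near starts, whereas 13574 of the 30000 pooled summits lay within 1000 bp of a protein-coding start. The shares over all pooled or all thresholded windows are thus not matched for place. Matches are descriptions of the letters, and none was tested.

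E-boxes were examined because HLH-1, the worm's MyoD, binds such sites in muscle genes. CANNTG, the E-box core, stood in 17 of 45 muscle windows (37.8%) and in 38.2% of all pooled windows. CAGCTG, a form of it, stood in 0 of 45 muscle windows and in 2.26% of all pooled windows. GTCACG stood in 0 of 45 muscle windows, 1.97% of all pooled windows and 6.18% of thresholded windows. These shares say only which letters lie within 75 bp of a summit, and only the muscle windows were all chosen near starts.

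In the full pooled list 22 of 35 muscle genes had a summit near a start, or 62.9%, against 52.5% of all protein-coding genes. The share was 10 of 13 for attachment genes (76.9%), 5 of 10 for thick filament genes and 5 of 10 for thin filament genes, and both regulators had one. Among the 10000 highest pooled peaks the attachment share did not exceed that of thin filament genes, as named in the closing section. The replicate lists gave 22 of 35 in replicate 1, against 52.1% of all genes, and 18 of 35 in replicate 2, against 53.4%. A summit in both replicate lists was found for 16 of 35 muscle genes, or 45.7%, against 35.8% of all genes. Those 16 were 9 of 13 attachment genes, 5 of 10 thin filament genes and 2 of 10 thick filament genes. This counts genes, so the summits of the replicates need not mark the same site. For atn-1 the best summits lay 470 bp upstream in replicate 1 and 384 bp downstream in replicate 2. No pooled peak of pat-3, atn-1 or unc-78 overlapped peaks of both replicate lists, and pat-2 had no pooled summit. Replicate 2 listed a summit for 2 of 10 thick filament genes and replicate 1 for 5 of 10. The differences between classes were not tested, since the genes were chosen with results known and 1 group of samples allows no test over samples.

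**Figure D1:**
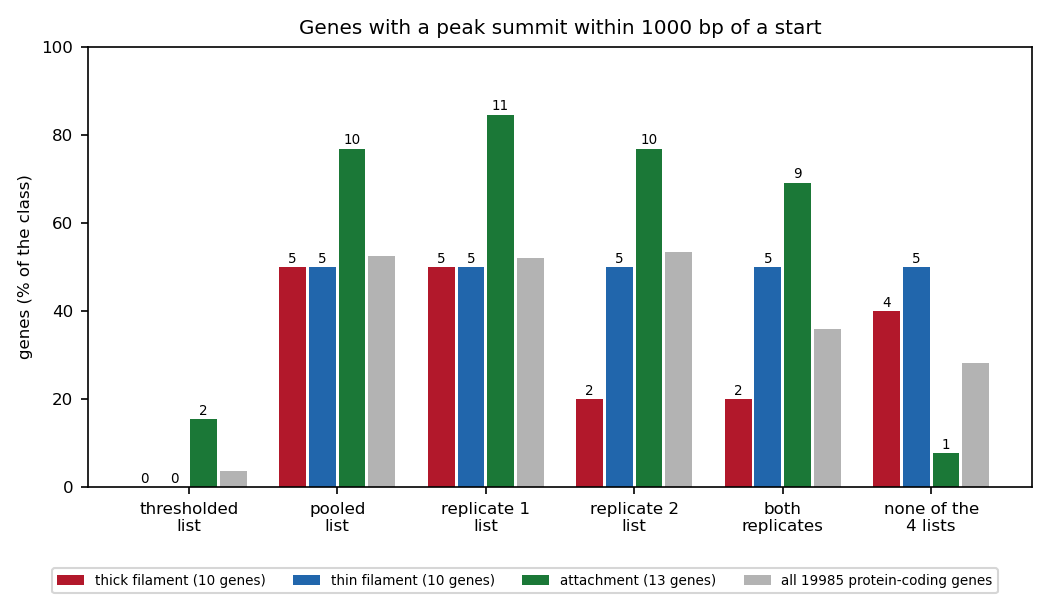
Share of genes with a peak summit within 1000 bp of a start (y axis, % of the class) in each peak list, in both replicate lists, and in none of the 4 lists, for 3 classes of muscle genes and all 19985 protein-coding genes. A gene counted in both replicate lists need not have its summits at the same site. Numbers over the bars count genes, and in the pooled list 76.9% of attachment genes have a summit, with 5 of 10 genes in both filament classes and 52.5% of all genes.

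Genes with several starts have more chances of a nearby summit. Of muscle genes with 1 start, 12 of 20 had a pooled summit, against 47.1% of the 14735 protein-coding genes with 1 start. Of those with 2 or more starts, 10 of 15 had one (66.7%), against 67.7% of 5250. With only the first start of each gene used, 19 of 35 muscle genes had a pooled summit, against 50.4% of all genes. The genes ttn-1, unc-52 and tln-1 then had none. Among the genes with a pooled summit, the median of the best signal was 25.0 for the 22 muscle genes and 23.6 for 10492 protein-coding genes. By class it was 35.9 for the 5 thin filament genes, 24.3 for the 10 attachment genes and 22.3 for the 5 thick filament genes.

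The integrin adhesion complex, which spans the muscle membrane, was covered unevenly. In the pooled list the genes of the integrin chains differed. The beta chain gene pat-3 had summits with signals of 21.0 in an intron 659 bp downstream of its start and 18.6 just upstream of it. The alpha chain gene pat-2 had no pooled summit within 1000 bp of its start. Both replicate lists held a summit near the start of each gene. In the replicate lists pat-2 had a summit at rank 10813 in replicate 1, 686 bp upstream, and at rank 15162 in replicate 2, 948 bp upstream. For pat-3 the summit lay 114 bp upstream in replicate 1 and 655 bp downstream in replicate 2. A thresholded peak with a signal of 62.6 lay 2678 bp upstream of pat-3, and 140 bp from the start of ccdc-47, its nearest gene. That peak ranked 305 in replicate 1 and 17221 in replicate 2.

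The kinase complex bound to integrin consists of the integrin-linked kinase PAT-4, the parvin PAT-6 and the PINCH protein UNC-97. Peaks with a signal near the limit of the thresholded list lay upstream of all 3 of their genes, a grouping made after the values were seen. For unc-97 and pat-4 these summits lay beyond 1000 bp. Within 2000 bp of a start, 3 of 35 muscle genes had a thresholded summit, against 4.97% of all genes. Other muscle genes also had higher pooled peaks within 2000 bp than within 1000 bp. Among them were deb-1 (signal 40.2, rank 1789), lev-11 (39.5, rank 1875) and dim-1 (31.1, rank 3871). The deb-1 peak lay past the end of the gene, downstream of the start, and also near a start of rps-4. For unc-97 the thresholded peak spanned 5591804 to 5592147 on chromosome X, with a signal of 61.5 and rank 629. Its summit lay 1157 bp upstream of the start, just outside the distance used, and unc-97 was the nearest protein-coding start. It ranked 413 in replicate 1 and 9343 in replicate 2. Within 1000 bp, unc-97 had a summit in replicate 1 alone, at rank 27682.

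For pat-4 the highest pooled summit within 1000 bp was 866 bp upstream, with a signal of 31.9 and rank 3533. That peak ranked 12552 in replicate 1 and 2779 in replicate 2, and the best summit of replicate 1 near the gene, 237 bp downstream of the start, ranked 2818. A stronger pooled peak, with a signal of 57.5 and rank 749, lay 1565 bp upstream on chromosome III (96202 to 96545) and within 1000 bp of the start of C29F9.8. It ranked 742 in replicate 1 and 7250 in replicate 2. At unc-112, unc-97 and this upstream site of pat-4 replicate 1 ranked the peak higher, and at pat-6 replicate 2 did.

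Talin (tln-1), vinculin (deb-1) and alpha-actinin (atn-1) link integrin to actin in the dense body. The gene tln-1 had 7 pooled summits near its 6 starts, the most of any muscle gene here, and the highest had a signal of 26.0 at rank 7186, 766 bp upstream of an internal start. That peak ranked 15602 in replicate 1 and 17423 in replicate 2. Higher in the replicate lists, at ranks 5156 and 6696, were summits near another start, and the first of these peaks overlapped a pooled peak with its summit in a coding exon of the neighbouring gene mppa-1. The gene deb-1 had 4 pooled summits and a best rank of 15036 (signal 20.5), 281 bp downstream of a start in an intron. For atn-1 a single pooled summit at rank 10171 lay 380 bp downstream of a start. None of these came near the thresholded list.

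The remaining attachment genes also had weak summits or none. The gene unc-52, for the basement membrane proteoglycan perlecan, had pooled summits 8 bp upstream and 631 bp downstream of internal starts, with signals of 20.2 and 17.4. The first of these lay in a coding exon, and no pooled summit lay within 1000 bp of the first start of the gene. Replicate 1 listed 6 summits near unc-52 starts and replicate 2 listed 0. For dim-1, an immunoglobulin-domain protein gene, the best pooled summit ranked 7932, 379 bp downstream of a start in a coding exon, with best ranks of 6512 and 3638 in replicates 1 and 2. For unc-95, a LIM-domain protein gene, it ranked 20083, and replicate 1 held no summit near the gene. The gene unc-98, for a zinc finger protein of M-lines, had none in any list.

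**Figure D2:**
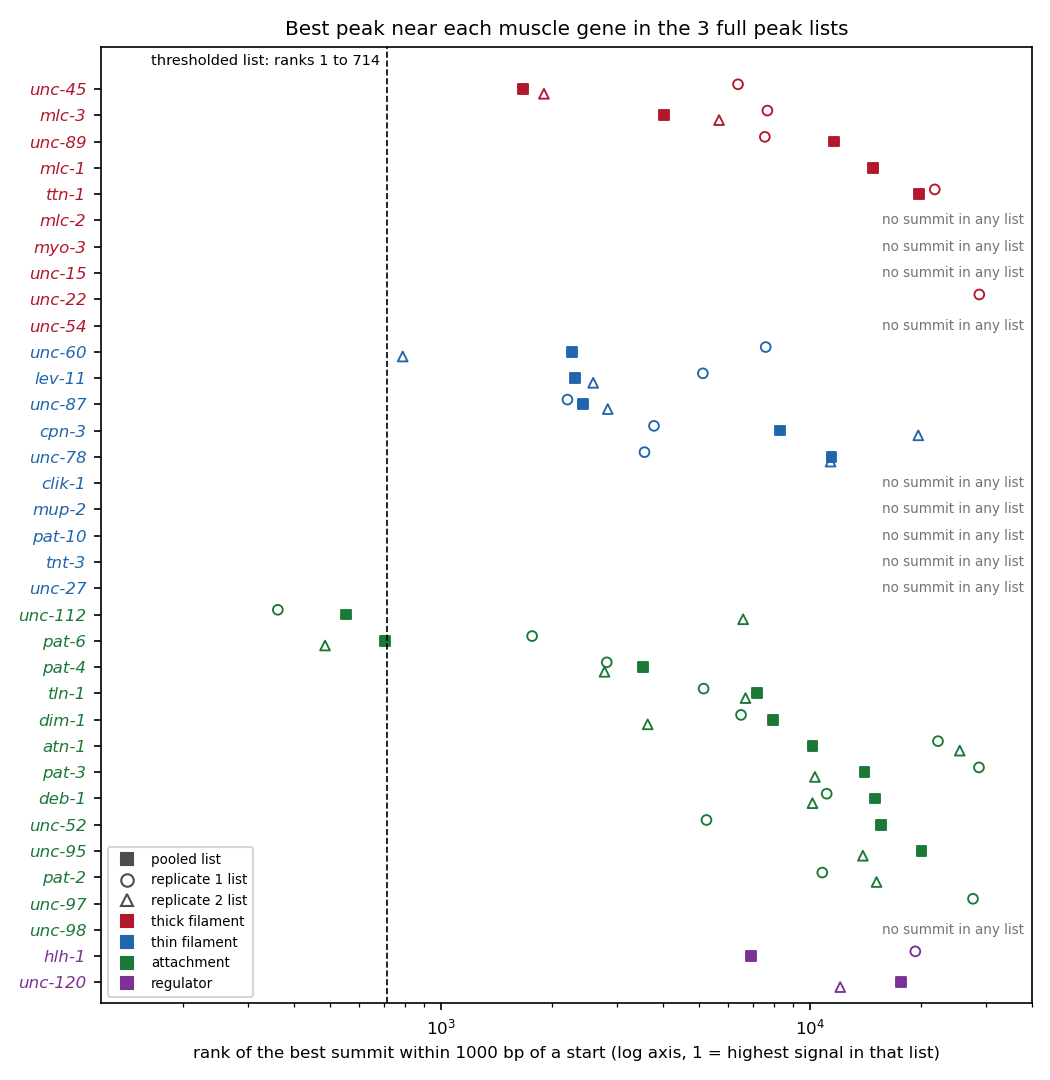
Rank of the best peak summit within 1000 bp of a start (x axis, log scale, 1 is the highest signal of a list) for each of the 35 muscle genes (rows, grouped by class), in the pooled list and in the lists of replicates 1 and 2. The pooled ranks of unc-112 (555) and pat-6 (705) fall left of the dashed line at rank 714, and 10 genes have no summit in any list.

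Among thick filament genes the highest pooled peak belonged to unc-45, which encodes a chaperone that folds myosin. It lay on chromosome III, 268 bp upstream of the start, with a signal of 41.3 and rank 1674, the nearest to the thresholded list of the summits within 1000 bp that were not in it. The overlapping peak ranked 6390 in replicate 1 and 1904 in replicate 2. The gene mlc-3, for the essential light chain of myosin, followed with a signal of 30.7 and rank 4025, 73 bp upstream of its start, and with ranks of 7676 and 5678 in replicates 1 and 2. These were the thick filament genes with a summit in both replicates.

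Genes for the giant proteins of the thick filament lattice had low peaks within 1000 bp of a start. The gene unc-89, for the M-line protein obscurin, had pooled summits 748 bp downstream of an internal start and 129 bp upstream of the first start. Their signals were 22.3 and 20.1, and the best summit of unc-89 ranked 7555 in replicate 1. The gene ttn-1, for titin, had a single pooled summit, near an internal start, at rank 19735, and rank 21809 in replicate 1. Replicate 2 held no summit within 1000 bp of a start of unc-89 or ttn-1. The gene unc-22, for twitchin, had a summit in replicate 1 alone, at rank 28792. Farther out, unc-89 had a pooled peak with a signal of 36.4 and rank 2333, 1930 bp upstream, which ranked 368 in replicate 2 and overlapped none in replicate 1. A pooled peak of unc-22, in an intron 1269 bp upstream of a start, had a signal of 27.9 and rank 5583, and it ranked 3211 in replicate 2 and overlapped none in replicate 1. The gene mlc-1, for a regulatory light chain of myosin, had a pooled summit at rank 14867, 833 bp upstream, that overlapped no peak of either replicate list.

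Genes for the backbone of the thick filament had no peak near a start. No list held a summit near unc-54 and myo-3, the myosin heavy chains of body wall muscle, unc-15, the paramyosin core, or mlc-2, the second regulatory light chain. Of 35 muscle genes, 10 had no summit in any list, or 28.6%, against 28.2% of all genes, so the share over the set was close to that background. They comprised 4 thick filament genes, 5 thin filament genes and 1 attachment gene. The pooled summit nearest to a start of unc-54 was 4298 bp away, and those for myo-3 and unc-15 were 4822 and 5784 bp away.

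Thin filament genes comprised 5 with summits in both replicates and 5 with none. The gene unc-60, for actin-depolymerising cofilins, had 3 pooled summits, the highest 370 bp upstream with a signal of 36.7 and rank 2272. That peak ranked 7596 in replicate 1 and 1472 in replicate 2, and replicate 2 listed another summit of the gene, 146 bp downstream of the start, at rank 789. A start of F53E2.2 lay within 1000 bp of each of these summits, so they cannot be given to unc-60 alone. The gene lev-11, for tropomyosin, had a summit of signal 36.5 and rank 2308, 406 bp upstream of an internal start in an intron, and ranks of 5133 and 2589 in replicates 1 and 2.

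The calponin-like gene unc-87 followed with a signal of 35.9 and rank 2428, 884 bp downstream of a start in an intron. That peak ranked 2205 in replicate 1 and 5573 in replicate 2, and another summit of replicate 2 near the gene ranked 2835. The calponin gene cpn-3 had a pooled signal of 24.9 at rank 8301, 592 bp upstream, and that peak ranked 7736 in replicate 1 and 19676 in replicate 2. The gene unc-78, for actin-interacting protein 1, had a signal of 22.5 at rank 11443, 157 bp downstream of its start. That peak ranked 11381 in replicate 2 and overlapped none in replicate 1, where a summit 503 bp upstream ranked 3566.

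No summit was listed near a start of the set's genes for the troponin complex, which makes thin filaments respond to calcium. Other troponin genes were counted among the further genes below and are not covered here. None of mup-2 and tnt-3 for troponin T, unc-27 for troponin I and pat-10 for troponin C had a summit near a start in any list, and neither did the calponin-like gene clik-1. The pooled summit nearest to a start was 1797 bp away for mup-2, 3467 bp for unc-27, 3718 bp for pat-10, 5639 bp for tnt-3 and 3530 bp for clik-1. Of these, only tnt-3 and clik-1 had a summit anywhere in the locus, 1 each, in replicate 1 for tnt-3 and in replicate 2 for clik-1. With any base of a peak counted in place of its summit, pat-10 had a peak within 1000 bp in replicate 1.

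For contrast with the sequences at peaks, the 150 bases just before the annotated start are shown for myo-3 and mup-2, where no list had a summit. Both end in CAG, as splice acceptors often do. In worms a leader RNA is often joined to the message at such a site, so the annotated start can lie downstream of the place where transcription begins. TTTCAG stood immediately before the first start of 9 of 35 muscle genes (25.7%), against 12.3% of all 19973 nuclear genes, and distances to such starts are distances to the mature message.

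myo-3, chrV:12234344-12234493, minus strand: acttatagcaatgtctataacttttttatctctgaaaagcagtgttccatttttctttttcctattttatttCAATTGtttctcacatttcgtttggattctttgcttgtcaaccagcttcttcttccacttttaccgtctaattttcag

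mup-2, chrX:6410228-6410377, minus strand: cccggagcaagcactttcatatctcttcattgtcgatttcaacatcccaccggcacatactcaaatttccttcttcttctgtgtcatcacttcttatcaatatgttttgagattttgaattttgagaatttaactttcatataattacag

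The letters found at summits also occurred in front of genes without a peak. In the 250 bases before the first start, AGAGAC stood in 10 of 35 muscle genes (28.6%), against 12.3% of the nuclear genes. It stood in 5 of 22 muscle genes with a pooled summit, against 13.8% of all genes with one. It also stood in 5 of 13 muscle genes without, namely unc-54, unc-15, mlc-2, unc-27 and unc-98, against 10.6% of all genes without. CANNTG stood in 13 of 35 muscle promoters (37.1%), against 59.4% of all. The G+C content of these 250 bases was 44.3% ± 10.9 for thick filament genes (SD, n = 10), 41.9% ± 6.79 for thin filament genes (n = 10) and 34.4% ± 7.0 for attachment genes (n = 13), against 33.8% ± 5.91 for all genes. The part of base composition in the differences between classes was not tested.

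Of 45 pooled summits near starts of muscle genes, 25 were upstream (55.6%), against 61.8% for all protein-coding genes, and the median distance was 418 bp against 408 bp. Of these 45 peaks, 20 overlapped a peak in both replicate lists by at least 1 bp (44.4%), against 36.5% of all pooled peaks. A further 11 overlapped a peak of replicate 1 only, 10 of replicate 2 only, and 4 of neither. The 36.5% was over an unlike set, since 13574 of the 30000 pooled summits lay within 1000 bp of a protein-coding start. All 45 did by choice.

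**Figure D3:**
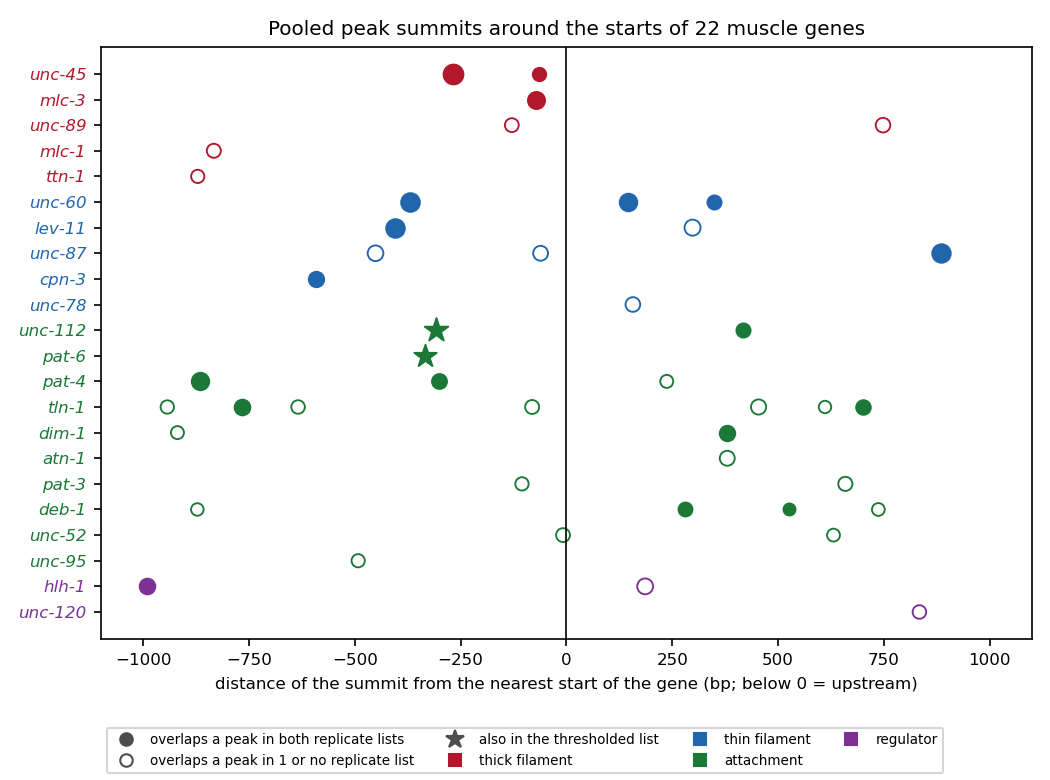
Distance of each of 45 pooled peak summits from the nearest start of its gene (x axis, bp, below 0 is upstream) for the 22 muscle genes with one (rows, coloured by class), with symbol area scaled to signal and filled where both replicate lists hold an overlapping peak. The stars of unc-112 and pat-6, the thresholded peaks, stand 307 and 335 bp upstream, and the summits of the other genes lie on either side of the start.

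Both regulators had weak summits. The gene hlh-1, for the bHLH factor that specifies muscle, had pooled summits 186 bp downstream and 992 bp upstream of starts, with signals of 26.3 and 25.9 at ranks 6918 and 7232. The upstream one overlapped peaks of both replicates, at ranks 14937 and 17864, and the downstream one a peak of replicate 1 only, at rank 25881. The gene unc-120, for a factor of the serum response factor family, had a signal of 19.3 at rank 17684, 834 bp downstream of its start in a coding exon. It ranked 12090 in replicate 2 and had no summit in replicate 1.

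Whole loci, from 1000 bp before the first start to the end of the gene, were then compared, because the giant genes hold long sequence away from starts. The 35 loci held 94 pooled summits in 406 kb, or 0.232 per kb, against 0.297 per kb over the loci of all protein-coding genes. The median per locus ran the other way, at 0.298 per kb for muscle genes and 0.244 per kb for all genes. Attachment loci held 48 summits in 125 kb (0.385 per kb), thin filament loci 14 in 49.6 kb (0.282 per kb) and thick filament loci 28 in 223 kb (0.126 per kb). The medians per locus were 0.353 per kb for attachment genes, 0.127 per kb for thin filament genes and 0.0926 per kb for thick filament genes, so the filament classes lay closer together by the median than by the sum. The longest thick filament loci were those of ttn-1 with 9 summits in 82.7 kb (0.109 per kb), unc-89 with 8 in 56.2 kb (0.142 per kb) and unc-22 with 3 in 39.3 kb (0.0763 per kb). The perlecan gene unc-52, of similar length to unc-22, held 13 in 38.1 kb (0.341 per kb). Replicate 1 placed 15 summits at unc-52 and 4 at unc-22, and replicate 2 placed 10 and 2.

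The locus with the most pooled summits per kb was pat-4 (0.787 per kb), followed by unc-112 (0.690), pat-3 (0.643) and pat-6 (0.598). No pooled summit lay in 10 of the 35 loci (28.6%), against 41.5% of all protein-coding genes, and the median locus was 6.22 kb for muscle genes and 3.03 kb for all. They were the loci of the 10 genes with no summit near a start in any list. Those of unc-54, myo-3 and unc-15 are 8.58, 8.53 and 7.59 kb long, and no summit of any list lay in them.

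**Figure D4:**
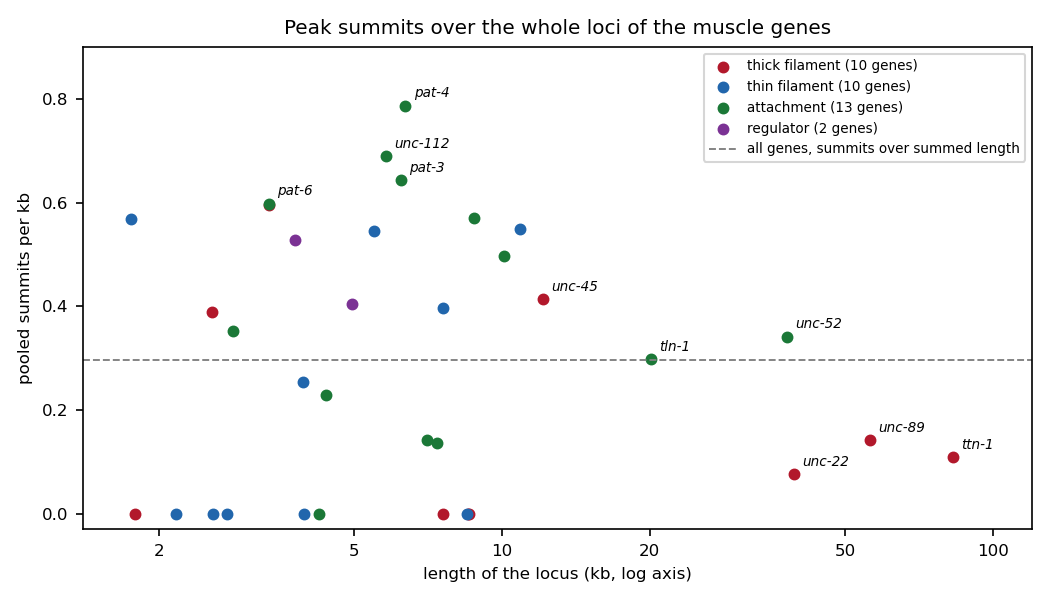
Pooled peak summits per kb (y axis) against the length of the locus (x axis, kb, log scale) for the 35 muscle genes, coloured by class, with the value over all protein-coding genes (0.297 per kb) as a dashed line. The 3 giant thick filament genes at the right lie between 0.0763 and 0.142 per kb, and pat-4, unc-112, pat-3 and pat-6 lie highest among attachment genes.

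A thresholded summit lay within 20 kb of a start for 10 of 35 muscle genes (28.6%), against 24.1% of all genes. By class it was 7 of 13 attachment genes, 2 of 10 thin filament genes and 1 of 10 thick filament genes. The thick filament genes unc-22 and ttn-1 lay just past this distance, at 21639 and 22046 bp, and no other distance was tried. Beyond pat-6, unc-112, unc-97 and pat-3, the genes within 20 kb were pat-4, mlc-3, unc-87, dim-1, clik-1 and pat-2. For each of the latter, the start nearest to the peak was that of another gene. It was attf-3 for pat-4 (133 bp away), nmad-1 for mlc-3 (202 bp) and cye-1 for unc-87 (993 bp). For dim-1 it was xol-1 (4873 bp), for clik-1 spe-39 (145 bp) and for pat-2 zfp-1 (655 bp). The median distance to the nearest thresholded summit was 57.2 kb for muscle genes and 56.4 kb for all genes.

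A further 71 genes were picked by name and examined in the same way. They act in muscle, in the basement membrane around it or in the epidermis to which it attaches. Of these 71 genes, 5 had a thresholded summit near a start (7.04%) and 46 a pooled one (64.8%), against the same 3.54% and 52.5% of all genes. The thresholded ones were the actin genes act-4 (signal 88.5, 307 bp upstream) and act-2 (61.6, 365 bp upstream), cap-2 for an actin capping protein (81.0, 209 bp upstream), unc-94 for tropomodulin, which caps the other end of the filament (65.9, 108 bp upstream), and lam-2 for laminin gamma in the basement membrane (70.0, 160 bp upstream). The cap-2 summit also had a start of gmps-1 within 1000 bp. So 4 of the 15 further thin filament genes had a thresholded summit, against 0 of 10 thin filament genes of the set, a difference that was not tested.

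Of 12 further genes for dense body and M-line proteins 0 had a thresholded summit and 10 a pooled one. The pooled counts were 5 of 9 for basement membrane genes, 10 of 14 for membrane and calcium genes, 5 of 8 for genes of the epidermal side of the attachment and 5 of 7 for regulators of muscle. Of the 6 contractile genes of pharyngeal muscle, a tissue with its own myosins and troponins, 0 had a pooled summit and 1 had a summit in both replicate lists. The act-4 peak ranked 233 in replicate 1 and 349 in replicate 2, while lam-2 ranked 268 in replicate 1 and had no overlapping peak in replicate 2.

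By chromosome, 3 of the 9 muscle genes on X had a pooled summit, against 53.1% of all X genes, and 19 of the 26 on autosomes had one, against 52.4% of all autosomal genes. The 6 without on X were mlc-2, mup-2, tnt-3, unc-27, unc-97 and unc-98. These counts overlap with the class counts, since 3 of the troponin genes lie on X, and were not tested.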

How the data were processed

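PAX-1 binding was measured by ChIP-seq in 2 samples that the labels call biological replicates, without saying how the cultures were kept apart. The signal of each peak is the authors' deposited value, on a scale that is not stated. The −log10 q of each peak is likewise the authors' deposited value. Per the listing deposited with the samples, each replicate list and the pooled list came from alignments and 1 further input file, and the thresholded list was derived from them by the irreproducible discovery rate. Not given in the sources used here were aligner, peak caller and threshold. The 4 lists on ce11 were used, and 4 lists on ce10 were not used here. Of per-sample value columns, 0 could not be matched to a sample.

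Peaks were ranked by signal within each list. A summit within 1000 bp of any annotated transcript start (Ensembl 115, WBcel235) was given to that gene, and a summit near several genes was given to each. Chromosome names and lengths were checked, and the outermost coding sequence of all 35 genes began with ATG in the RefSeq sequence. The assignment was tested on simulated data. Motifs were searched on both strands. Shares are set beside those of all 19985 protein-coding genes, and no test was run, since there was 1 group and the genes, classes, further genes and motifs were chosen with earlier results of these data known. All 35 genes are accounted for, with fullest values for thresholded genes and the 4 highest of each class, and for the further genes of muscle and neighbouring tissue with a thresholded summit. Any other gene was named with its values already known. Alternatives covered the distance, the choice of starts, the list, the class of genes with 2 roles, the overlap and the window. Python 3.11.15, numpy 2.4.6, pandas 2.3.3 and matplotlib 3.10.9 were used.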

Additional observations from a re-analysis of the deposited data

How the results depend on the processing

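Of 61 alternatives for counts, 54 stayed within 1.5 times the count reported and 7 did not. The 54 include class counts of 0 that stayed at 0. The rule scores the counts of muscle genes alone, although the share of all genes moved as well. In the pooled list that share was 37.5% within 500 bp and 68.2% within 2000 bp. The 2 thresholded genes, both attachment genes, became 0 in the upper 357 thresholded peaks by signal, against 1.74% of all genes. Taking the 714 highest peaks of a single replicate in place of the thresholded list gave 1 to 1 gene, unc-112 without replicate 2 (3.45% of all genes) and pat-6 without replicate 1 (3.35%). The pooled count of 22 genes became 12 in the 10000 highest pooled peaks, against 26.3% of all genes. Left there were the attachment genes pat-4, pat-6, unc-112, tln-1 and dim-1 and the thin filament genes lev-11, unc-60, unc-87 and cpn-3. The others were the thick filament genes mlc-3 and unc-45 and the regulator hlh-1. The higher share of attachment genes than of thin filament genes was thus not seen at this limit. Within 500 bp of a start, the pooled count of thick filament genes was 3 in place of 5, and that of regulators 1 in place of 2, while the share of all genes was 37.5% in place of 52.5%. Of 70 alternatives for the best pooled rank of 14 genes, 4 left no summit (mlc-1, cpn-3 and unc-120 within 500 bp, and tln-1 with the first start only) and 9 gave another summit, for unc-89, lev-11, unc-87, pat-4 and tln-1. With wider windows CANNTG stood in 32 of 45 muscle windows (71.1%), against 62.2% of all pooled windows, and GTCACG in 1 (2.22%), against 3.76%. The search for AGAGACG was added after seeing the data. No paired analysis was possible because all samples belong to 1 group. The lists give no read counts, so what depth limits is unknown.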
